A study of Mus musculus with 6 samples.

Results

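Fibroblast growth factor (FGF) ligands and their receptors were examined in Hepa1-6 tumors from mice with and without sorafenib (Sora). The 10 genes, Fgf1, Fgf2, Fgf7, Fgf10, Fgf15, Fgf21 and the receptors Fgfr1, Fgfr2, Fgfr3 and Fgfr4, were found by exact gene symbol among 26167 genes, and were taken for their known roles in liver cancer and in resistance to Sora. Hepa1-6 is a mouse liver cancer line, and it was grown as subcutaneous tumors in C57BL/6J mice, female and 6 to 8 weeks old. The 3 Sora-treated tumors came from mice given 10 mg of Sora per kg into the peritoneum on days 9, 11, 13 and 15, and the 3 control tumors came from mice without Sora; what the controls were given instead is not stated in the sources used here. No transgene or gene deletion is named for either group. The tumors are called by their label numbers, control tumors 1, 3 and 4 and Sora-treated tumors 2, 3 and 4. RNA was sequenced from whole tumors, so each value mixes cancer cells with host stroma, and fewer cells of a type and less RNA per cell cannot be told apart. The labels do not say that each tumor came from its own mouse, and the p-values below measure the spread between these 6 tumors.

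FGF ligands are secreted proteins that bind receptor tyrosine kinases on the cell surface. Most of them act locally and need heparan sulfate to hold the receptor, whereas Fgf15 and Fgf21 travel in blood and need the coreceptor beta-Klotho, encoded by Klb. An active receptor signals through Frs2 and Ras to the kinase ERK, which switches on genes such as Spry4 and Dusp6 that in turn restrain the pathway. In liver, Fgfr4 with beta-Klotho receives Fgf15 from the intestine and holds back bile acid synthesis, while Fgf21 is itself made by hepatocytes under stress and fasting. Sora is an inhibitor of many kinases, among them RAF kinases, which lie between Ras and ERK.

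The total count per tumor ranged from 31073830 to 36205814. For Sora-treated tumor 4 the count of each gene was worked back from FPKM, because the count table held the other 5 tumors only. Among 10 hepatoma marker genes, Afp at 408 FPKM, Alb at 1306 FPKM and Trf at 712 FPKM were abundant on average over the 6 tumors, and Fabp1 at 0.0412 FPKM and Serpina1a at 0.0731 FPKM were almost absent. Their summed level ranged from 6999 to 9165 CPM (counts scaled to the total count of the tumor after TMM adjustment) in the controls and from 7369 to 8197 CPM with Sora, so the groups overlapped, although 3 of the 8 genes tested passed in edgeR: Ttr fell (log2 fold change -2.15, adjusted p = 0.0055), Alb fell (-0.55, adjusted p = 0.041) and Apoa1 rose (1.03, adjusted p = 0.047). Of 8 fibroblast markers, 7 had a negative log2 fold change and 1 a positive one. Their sum was 7685 to 7960 CPM in the controls, against 5444 to 6843 CPM with Sora, without overlap. The collagen genes Col1a1, Col1a2 and Col3a1 summed to 5761 to 6151 CPM in the controls, against 3497 to 4903 CPM with Sora, without overlap. The other 5 summed to 1809 to 2009 CPM, against 1859 to 1948 CPM, and overlapped. Most of that sum was Dcn, with means of 1608 and 1638 CPM. This split was made after the values were seen. None of the 8 passed in edgeR (3 at an unadjusted p under 0.05, 3 called by DESeq2).

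None of the 8 FGF members with enough reads to test passed an adjusted p of 0.05 (edgeR quasi-likelihood test), against 3.29% of the 16513 genes tested. At an unadjusted p under 0.05 the count was 1 of 8, namely Fgf1, against 17.2% of all genes. DESeq2 called 1 of the 8, again Fgf1, against 7.72% of the 15472 genes to which it gave an adjusted p. Fgf1 stood lower in Sora-treated tumors, Fgfr3 stood higher in every Sora-treated tumor than in control tumors 3 and 4 but overlapped with control tumor 1, and Fgfr4 stood at nearly the same level in both groups. The median log2 fold change of the 8 was -0.18, with 2 higher and 6 lower, beside 0.00 (-0.0004) over all genes tested. The clearer changes lay around the members: the coreceptor gene Klb fell, and the feedback inhibitor genes Spry4 and Spred3 rose. The genes Dusp4, Dusp5, Egr1 and Ier3, switched on downstream of ERK, rose as well. Of the heparan sulfate genes, Gpc6 fell and Hs3st1 rose. None of these 9 calls stood without control tumor 1 or without Sora-treated tumor 4.

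Promoter sequences are shown for the endocrine FGF branch, because ligand, receptor and coreceptor had very different levels there: Fgf21 was almost unread, Fgfr4 was the second most abundant member, and Klb was the pathway gene that fell most among those that passed the test. Each run is the 250 bases before the RefSeq transcription start (GRCm38.p6), read along the strand of the gene, at chr7:45615491-45615740 on the minus strand for Fgf21, chr13:55152568-55152817 on the plus strand for Fgfr4, and chr5:65348161-65348410 on the plus strand for Klb. Capitals mark letters that match one of 6 short motifs, searched on both strands.
Fgf21: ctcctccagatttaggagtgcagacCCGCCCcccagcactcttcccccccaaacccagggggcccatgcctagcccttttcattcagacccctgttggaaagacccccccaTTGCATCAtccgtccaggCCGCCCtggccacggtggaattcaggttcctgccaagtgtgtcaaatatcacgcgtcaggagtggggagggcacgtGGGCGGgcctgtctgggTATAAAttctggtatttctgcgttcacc
Fgfr4: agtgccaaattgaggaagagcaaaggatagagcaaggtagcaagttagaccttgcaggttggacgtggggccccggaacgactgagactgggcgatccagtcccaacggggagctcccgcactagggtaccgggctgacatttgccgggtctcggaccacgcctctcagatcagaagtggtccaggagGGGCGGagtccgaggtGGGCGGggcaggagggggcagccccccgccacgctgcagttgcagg
Klb: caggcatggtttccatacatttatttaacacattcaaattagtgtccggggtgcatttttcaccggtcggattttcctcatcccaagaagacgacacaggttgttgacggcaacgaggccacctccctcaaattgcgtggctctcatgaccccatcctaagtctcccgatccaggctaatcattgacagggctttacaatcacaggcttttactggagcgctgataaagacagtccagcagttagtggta
Fgf21 held the ATF4 response element (TGATGNAA) in reverse complement 139 to 132 bases before the start, a TATA box (TATAAA) 28 to 23 bases before it, and 3 GC boxes (GGGCGG). Such an ATF4 match was found in 3.45% of 32851 promoters of this length, a TATA box match in 12.4%, and a GC box in 32.7%. Fgfr4 held 2 GC boxes, and Klb held no match. The other motifs searched were the AP-1 site (TGANTCA, 6.75% of promoters), the cAMP response element (TGACGTCA, 1.55%) and an HNF1 site (GTTAAT, 6.43%), and none of them was found in these windows. A match is a run of letters and says nothing of binding. Promoter windows were searched for 7 of the 10 members.

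FPKM, a read count corrected for both gene length and sequencing depth, was used to set the members side by side. Over the 6 tumors, Fgfr1 had the highest mean level at 17.3 ± 2.22 FPKM (SD, n = 6), and stood above 85.3% of all genes. Fgfr4 followed at 6.76 ± 0.61 FPKM (SD, n = 6). Both receptors stood above each following member in every tumor, with no overlap of ranges.

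A middle group came next, whose neighbors overlapped in range. Fgf7 had a mean of 1.41 ± 0.43 FPKM, Fgfr3 of 1.10 ± 0.43 FPKM, Fgfr2 of 0.875 ± 0.238 FPKM, Fgf1 of 0.605 ± 0.214 FPKM and Fgf2 of 0.421 ± 0.057 FPKM (SD, n = 6 each). Their order among themselves was therefore not resolved between neighbors, although Fgfr2 exceeded Fgf1 in 6 of 6 tumors. Fgf10 lay clearly below them at 0.0951 ± 0.0506 FPKM (SD, n = 6), and Fgf21 and Fgf15 lay at the limit of detection. The place of Fgf1 depends on its length: the FPKM values imply 19443 bases for this gene. With the same reads over the 5463 bases of its exons in GENCODE, its mean is 2.15 FPKM, the third highest of the 10. Reads outside those exons could not be taken out, so this mean may be too high.

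**Figure D1:**
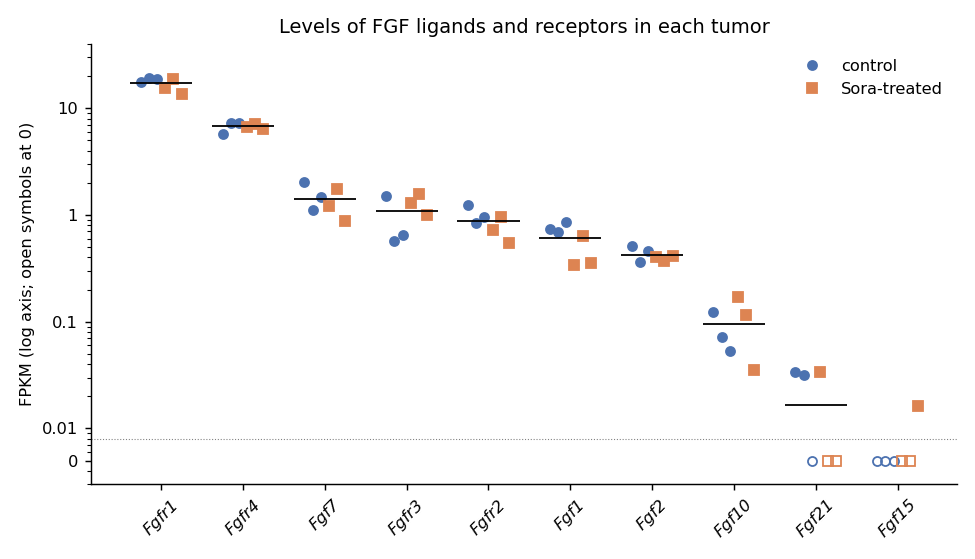
FPKM of the 10 members on a log axis, with 1 point per tumor (blue circles, control; orange squares, Sora-treated) and a black line at the mean of the 6 tumors, which is left out for Fgf15. Fgfr1 and Fgfr4 stand above all others, and open symbols below the dotted line are tumors in which Fgf21 or Fgf15 was at 0.

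Among the ligands that act locally, Fgf1 is unusual in that it binds all of the FGF receptors. The controls had 14.0, 13.9 and 16.6 CPM, against 6.59, 12.3 and 7.03 CPM with Sora. The groups did not overlap, and Sora-treated tumor 3 lay close to the controls; 11.6% of all genes tested were likewise lower in every Sora-treated tumor than in every control. The log2 fold change was -0.78 (SE 0.21, 95% interval -1.25 to -0.31), with an adjusted p of 0.075 by edgeR, so that Fgf1 did not pass. DESeq2 gave an adjusted p of 0.0043, and edgeR without the filter on low counts gave 0.0050, both past the threshold, but DESeq2 on the 5 deposited count columns, without Sora-treated tumor 4, gave a log2 fold change of -0.65 and an adjusted p of 0.118. Without Sora-treated tumor 3 the log2 fold change was -1.13 with an adjusted p of 0.0027, whereas leaving out any other tumor gave adjusted p values up to 0.286. The call on Fgf1 thus depended on the tool and on which tumors were used, while its direction was the same with each tumor left out (-1.13 to -0.62). Summed fibroblast, macrophage and T cell markers were also lower with Sora without overlap. Summed neutrophil markers were higher, and the sums of the other marker lists overlapped. The part of cell content in the Fgf1 values was not tested.

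Tumor by tumor, the genes whose log2(CPM + 1) most resembled Fgf1 were Tmem86a (Pearson r = 0.998), Tbc1d23 (r = 0.994) and Slc29a3 (r = 0.993). These values are a description over 6 tumors that share 2 treatment groups, out of 14114 genes compared, of which 200, or 1.42%, had an r over 0.95. Tmem86a averaged 27.2 CPM in control and 19.9 CPM in Sora-treated tumors.

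Fgf2, or basic FGF, is a growth factor for fibroblasts and endothelial cells. The controls had 3.61, 2.67 and 3.34 CPM, against 2.94, 2.68 and 3.08 CPM with Sora. The ranges overlapped, and the log2 fold change was -0.15 (SE 0.23, 95% interval -0.64 to 0.35, edgeR adjusted p = 0.80). It was -0.05 without control tumor 1 and -0.26 without control tumor 3.

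Fgf7 and Fgf10 are made by mesenchymal cells and act on epithelial cells through a splice form of Fgfr2. For Fgf7, the controls had 5.26, 3.04 and 3.92 CPM, against 3.23, 4.68 and 2.42 CPM with Sora. Each group held high and low tumors, and the log2 fold change was -0.24 (SE 0.29, 95% interval -0.88 to 0.39, edgeR adjusted p = 0.73). Without Sora-treated tumor 4, the lowest of the 6, it was -0.04, without control tumor 1 it was -0.02, and without Sora-treated tumor 3 it was -0.53.

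Fgf10 was read 16, 10 and 8 times in the controls, against 22, 16 and 5 times with Sora. These counts overlapped, and the log2 fold change of 0.38 had a wide interval (SE 0.59, 95% interval -0.92 to 1.67, edgeR adjusted p = 0.80). Its sign was carried by Sora-treated tumor 2, without which it was -0.11; with any other tumor left out it lay between 0.13 and 0.79. The intervals of Fgf2, Fgf7 and Fgf10 leave room for sizable changes in either direction.

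Fgf15 and Fgf21, which act through beta-Klotho, were at the limit of detection. Fgf21 was read once in control tumors 1 and 3 and in Sora-treated tumor 2, and was at 0 in the other 3 tumors. A count of 0 allows up to 3 counts, or 0.0829 to 0.0965 CPM by the plain total counts, for counting error only; both groups were under that limit and no fold was computed. Fgf15, a gut hormone and the mouse counterpart of human FGF19, was at 0 in 5 tumors. In Sora-treated tumor 4 its FPKM was 0.0162, which is 1 read if the gene is 1809 bases long, beside a longest GENCODE transcript of 1810 bases.

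Regulators of these hormones were read at very different levels. Atf4, the stress transcription factor whose element the Fgf21 promoter matched, had a mean of 112 FPKM, with 166.7, 194.5 and 169.0 CPM in the controls against 210.7, 188.2 and 232.8 CPM with Sora. The groups overlapped, with a log2 fold change of 0.25 (SE 0.095, edgeR adjusted p = 0.19). Rxra, a partner of many nuclear receptors, averaged 12.8 FPKM, and Nr1h4, the bile acid receptor that induces Fgf15 in intestine, averaged 1.52 FPKM (log2 fold changes of -0.06 and -0.01, adjusted p of 0.73 and 0.99). The bile acid genes Cyp7a1, Cyp8b1, Nr0b2, Slc10a1 and Abcb11 averaged 0.0111 to 0.0219 FPKM and were too low to test. Of the 10 genes in this list, 5 were tested and 0 passed in edgeR or DESeq2, with 1 higher and 1 lower at an unadjusted p under 0.05.

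Around Fgf15 lies a block of genes whose human counterpart is gained in some liver cancers. Its listed neighbors spanned the range of expression: Ccnd1 (cyclin D1) averaged 209 FPKM, Cttn 156 FPKM, Ppfia1 18.6 FPKM, Ano1 13.7 FPKM, Fadd 6.99 FPKM, Tpcn2 4.91 FPKM, Shank2 0.998 FPKM and Fgf3 0.00449 FPKM. Fgf15 and Fgf3 were thus near 0 beside strongly expressed neighbors, and Fgf4 was not analysed here. Among the 7 neighbors tested, 0 passed in edgeR or DESeq2, and 1 had an unadjusted p under 0.05. That gene was Cttn, with a log2 fold change of 0.21 (SE 0.073, adjusted p = 0.16).

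**Figure D2:**
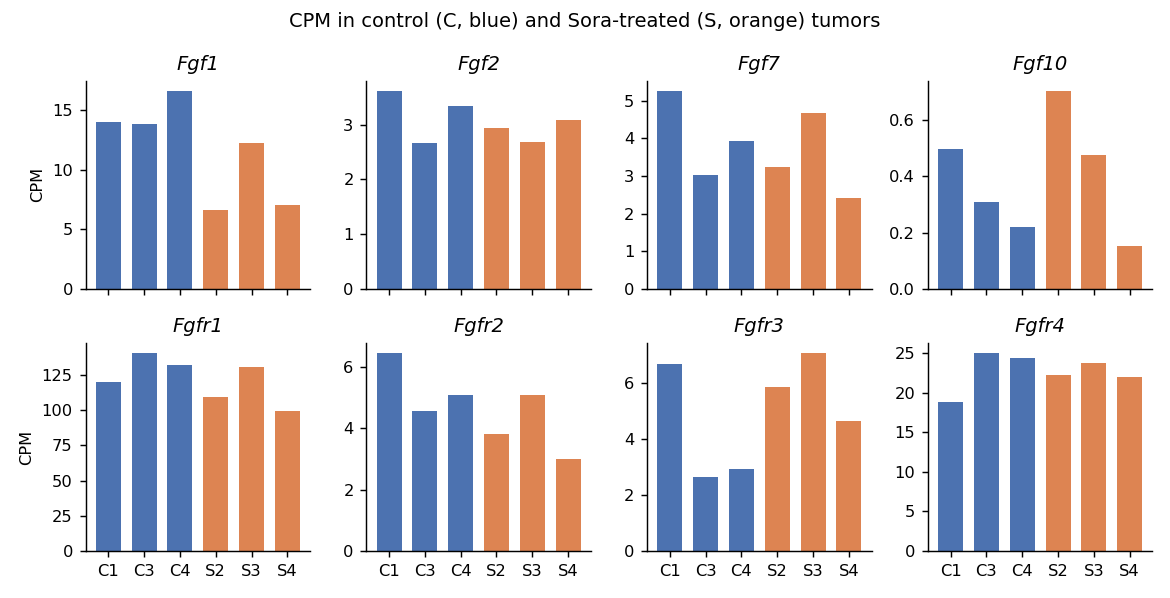
CPM of the 8 tested members in each tumor (C1, C3, C4, control tumors 1, 3 and 4, blue; S2, S3, S4, Sora-treated tumors 2, 3 and 4, orange), with 1 bar per tumor and axes that start at 0. Fgf1 is the only panel in which every orange bar is lower than every blue bar, and Fgfr3 is high in control tumor 1 as well as in the Sora-treated tumors.

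Fgfr1, the receptor found widely in mesenchymal cells, had the highest level of the family. The controls had 120.3, 140.5 and 132.2 CPM, against 109.5, 130.7 and 99.7 CPM with Sora. Tumors 2 and 4 of the Sora-treated group were below every control, and tumor 3 was within their range. The log2 fold change was -0.21 (SE 0.10, 95% interval -0.44 to 0.02, edgeR adjusted p = 0.34), and it was -0.12 without Sora-treated tumor 4 but -0.33 with tumor 3 of that group left out. The sum of the 8 fibroblast markers given above was lower in the Sora-treated tumors without overlap. That of their collagen genes was too, while the sum of the other 5 overlapped. The part of fibroblast content in the values of Fgfr1, Fgf2 and Fgf7 was not tested.

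Fgfr2 binds Fgf7 and Fgf10 in epithelial cells. The controls had 6.45, 4.58 and 5.07 CPM, against 3.804, 5.09 and 2.99 CPM with Sora. The groups overlapped through Sora-treated tumor 3, and the log2 fold change was -0.44 (SE 0.24, 95% interval -0.96 to 0.09, edgeR adjusted p = 0.39). Sora-treated tumor 4 was the lowest of the 6 tumors for Fgfr1, Fgfr2, Fgf7 and Fgf10, that is for 4 of the 8 tested members; it was the lowest for 19.3% of all genes tested. Without it the log2 fold change of Fgfr2 was -0.27; without control tumor 1 it was -0.28, and without Sora-treated tumor 3 it was -0.66.

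Fgfr3, a receptor of epithelium and cartilage, had the largest SD of the tested members relative to its mean among control tumors. The controls had 6.70, 2.64 and 2.93 CPM, against 5.88, 7.09 and 4.65 CPM with Sora. Control tumor 1 stood with the Sora-treated tumors and apart from the other 2 controls. The log2 fold change was 0.52 (SE 0.33, 95% interval -0.20 to 1.25, edgeR adjusted p = 0.47), and it was 1.07 with an adjusted p of 0.069 without control tumor 1, but 0.29 without control tumor 3 and 0.33 without control tumor 4. Skin markers moved with it: the summed CPM of 8 keratinocyte and skin genes was 1084, 325 and 402 in the controls against 970, 725 and 689 with Sora, all 8 genes had positive log2 fold changes, and 0 passed in edgeR or DESeq2 (1 at an unadjusted p under 0.05). None of the 8 was at 0, and the defining markers Krt14 and Krt5 averaged 146 and 72.1 FPKM. Per 1000 CPM of that list, Fgfr3 was at 7.20 ± 0.98 CPM in control tumors and 7.53 ± 1.97 CPM in Sora-treated tumors (SD, n = 3 each). This ratio was chosen after the values were seen and is a description; the part of skin content in the Fgfr3 values was not tested.

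Fgfr4, the main FGF receptor of hepatocytes, had the smallest SD of the tested members relative to its mean FPKM over the 6 tumors. The controls had 18.9, 25.02 and 24.4 CPM, against 22.2, 23.8 and 21.98 CPM with Sora. The Sora-treated tumors lay within the range of the controls, of which control tumor 1 was the lowest. The log2 fold change was -0.01 (SE 0.11, 95% interval -0.26 to 0.24, edgeR adjusted p = 0.98), which with that of Fgfr1 was the narrowest among the members. Its sign was not fixed: without control tumor 3 it was 0.07.

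**Figure D3:**
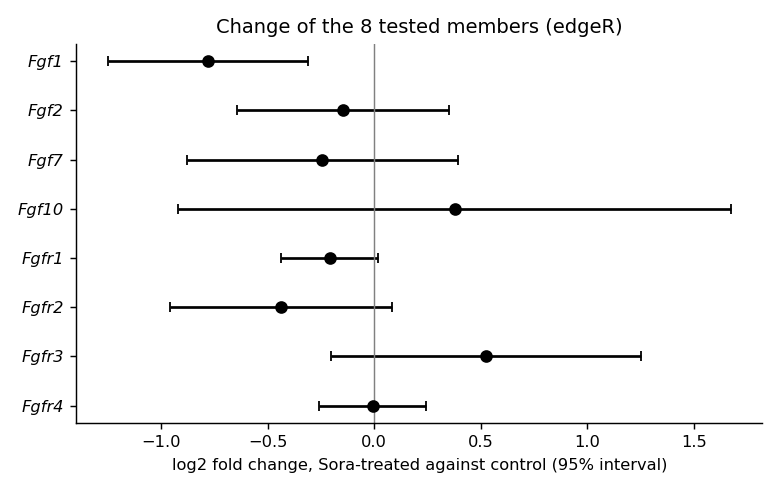
Log2 fold change of the 8 tested members in Sora-treated against control tumors, with points at the edgeR estimate and bars for the 95% interval. The interval of Fgf1 lies below 0, those of the other 7 members cross 0, that of Fgfr4 is among the narrowest, and that of Fgf10 is the widest.

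The makeup of the receptor pool was computed as the share of each receptor in the summed FPKM of the 4. The sum was 27.3 ± 1.13 FPKM in control and 24.7 ± 3.41 FPKM in Sora-treated tumors (SD, n = 3 each; exact two-sided permutation p = 0.40, adjusted 0.47). Fgfr1 made up 67.2%, 69.1% and 67.8% in the controls, against 64.2%, 65.8% and 63.4% with Sora. The groups did not overlap, but with 3 tumors against 3 the exact permutation p of 0.10 was the smallest possible, and it was 0.35 when adjusted over the 7 shares, sums and ratios compared. The share of Fgfr4 was 24.9% ± 2.28 against 27.4% ± 2.12, that of Fgfr3 3.39% ± 2.10 against 5.17% ± 0.50, and that of Fgfr2 3.73% ± 0.93 against 2.96% ± 0.44 (mean ± SD of control against Sora-treated, n = 3 each). Their exact permutation p values were 0.30, 0.40 and 0.20, each 0.47 after adjustment.

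The coreceptor list held the gene with the lowest log2 fold change of the 75 pathway genes tested. Klb encodes beta-Klotho, without which Fgf15 and Fgf21 bind their receptors poorly. The controls had 2.06, 1.41 and 1.54 CPM, against 0.22, 0.57 and 0.51 CPM with Sora. All 3 Sora-treated tumors lay well below the controls, and Klb fell by 1.93 on the log2 scale (SE 0.41, 95% interval -2.83 to -1.02, edgeR adjusted p = 0.033), to 0.263 of the control level. Per 100 FPKM of Fgfr4, Klb was at 3.99 ± 1.501 FPKM in control and 1.001 ± 0.41 FPKM in Sora-treated tumors (SD, n = 3 each; exact two-sided permutation p = 0.10, the smallest possible, adjusted 0.35). The level of Klb was low, with a mean of 0.165 FPKM over the 6 tumors. Among the hepatoma markers given above, 4 of the 8 tested were higher and 4 lower, with calls in both directions and an overlapping sum, and their part in this result was not tested. With single tumors left out its log2 fold change ranged from -2.16 to -1.62 and its adjusted p from 0.028 to 0.125; it stayed past the threshold only without Sora-treated tumor 3.

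Of the 7 genes tested in this list, 0 rose and 1 fell, against 1.94% and 1.34% of all genes, with a median log2 fold change of -0.19. At an unadjusted p under 0.05 there were 5, against 17.2% of all genes, and DESeq2 called 2, against 7.72%. At a mean of 12.2 FPKM, Fgfrl1, a receptor without a kinase domain, was the most abundant and had a log2 fold change of -0.19 (SE 0.17, edgeR adjusted p = 0.63). Fgfbp1, which releases FGFs from the matrix, had one of 0.42 (SE 0.14, adjusted p = 0.12), and Flrt3, a membrane protein that binds FGF receptors, one of 0.53 (SE 0.15, adjusted p = 0.078).

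**Figure D4:**
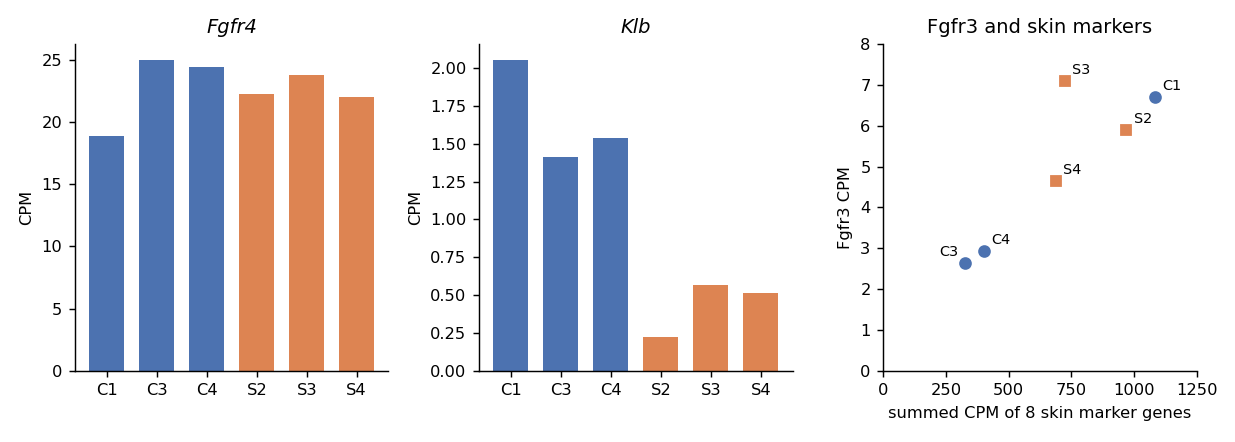
CPM of Fgfr4 and of its coreceptor gene Klb in each tumor (bars from 0; control, blue; Sora-treated, orange), and Fgfr3 CPM against the summed CPM of 8 skin marker genes (1 point per tumor). Klb is lower in every Sora-treated tumor while Fgfr4 overlaps, and control tumor 1 lies with the Sora-treated tumors on both axes of the third panel.

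In the fixed pathway lists as a whole, 88 of 97 genes were in the tables and 75 could be tested; Ccnd1, Fgf3 and Fgf4 stand in 2 lists each. Of the 75, 7 rose, against 1.94% of all genes, and 2 fell, against 1.34%. The lists were chosen with earlier results of these data known, so these counts are a description only. Groups did not overlap for 16 that were higher, against 10.6% of all genes, and for 10 that were lower, against the 11.6% given above.

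Heparan sulfate chains hold FGF to its receptor. Among 21 tested genes of proteoglycans and of enzymes that build or trim the chains, 1 rose and 1 fell, against 1.94% and 1.34% of all genes. The median log2 fold change was -0.05. At an unadjusted p under 0.05 there were 8, against 17.2% of all genes, and DESeq2 called 5, against 7.72%. Gpc6, a glypican, went from 18.1 ± 1.75 CPM to 12.1 ± 1.34 CPM (SD, n = 3 each; log2 fold change -0.59, SE 0.12, edgeR adjusted p = 0.030). Hs3st1, a sulfotransferase, went from 18.7 ± 2.47 CPM to 25.9 ± 1.62 CPM (log2 fold change 0.47, SE 0.11, adjusted p = 0.045). The most abundant genes of this list did not pass: Sdc4 at 113 FPKM, Ext1 at 66.4 FPKM and Sdc1 at 63.3 FPKM had log2 fold changes of 0.26, -0.11 and 0.38 (adjusted p of 0.18, 0.48 and 0.061).

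Adaptors and effectors carry the signal from receptor to Ras. None of 12 passed in edgeR or DESeq2, 0 had an unadjusted p under 0.05, and the median log2 fold change was 0.00 (-0.0033). Grb2, Shc1 and Ptpn11, the most abundant, averaged 47.6, 42.1 and 31.9 FPKM and had log2 fold changes of 0.03, -0.08 and 0.05.

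Feedback inhibitors restrain the pathway at the receptor, at Ras and RAF, or at ERK. Among the 8 tested, 2 rose and 0 fell, against 1.94% and 1.34% of all genes, and the median log2 fold change was 0.23. At an unadjusted p under 0.05 there were 4, against 17.2% of all genes, and DESeq2 called 4, against 7.72%. For Spry4, an inhibitor of Ras and RAF signaling, the controls had 28.7, 28.1 and 33.7 CPM, against 61.1, 41.8 and 61.6 CPM with Sora. All Sora-treated tumors exceeded all controls, with tumor 3 nearest to them, and Spry4 rose by 0.86 on the log2 scale (SE 0.14, 95% interval 0.55 to 1.17, edgeR adjusted p = 0.015). Spred3 of a related family rose by 0.64 (SE 0.12, adjusted p = 0.021). Dusp6, the ERK phosphatase and at 97.9 FPKM the most abundant of the list, had a log2 fold change of 0.31 (SE 0.099, adjusted p = 0.12). Spry1 pointed the other way at -0.51 (SE 0.16, adjusted p = 0.12), and Spred1 was at 0.03 (SE 0.077, adjusted p = 0.89).

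The 12 genes switched on downstream of ERK gave 4 that rose and 0 that fell, against 1.94% and 1.34% of all genes tested. Their median log2 fold change was 0.35. At an unadjusted p under 0.05 there were 7 higher and 1 lower, against 1409 higher and 1435 lower of all 16513 genes tested. DESeq2 called 7 of the 12, against 7.72% of all genes. The nuclear ERK phosphatases Dusp5 and Dusp4 rose by 0.79 (SE 0.15, edgeR adjusted p = 0.023) and 0.53 (SE 0.11, adjusted p = 0.031). Egr1, an immediate-early transcription factor, rose by 0.58 (SE 0.13, adjusted p = 0.043), and Ier3 rose by 0.42 (SE 0.096, adjusted p = 0.043). Abundant outputs did not pass: Ccnd1, Phlda1 and Myc, at 209, 206 and 70.8 FPKM, had log2 fold changes of -0.03, 0.21 and 0.13 (adjusted p of 0.91, 0.23 and 0.45). Etv5, an ETS transcription factor induced by FGF signaling, was the lower one: its CPM was below every control in every Sora-treated tumor, with a log2 fold change of -0.26 (SE 0.073, adjusted p = 0.077). The related Etv4 was above every control in every Sora-treated tumor, at 0.36 (SE 0.094, adjusted p = 0.066), and Etv1 was at 0.00 (0.00022, SE 0.30). Many other inputs also induce these genes, and their levels do not identify an FGF receptor as the source. Summed neutrophil markers were higher in Sora-treated tumors without overlap (69.9 to 79.0 CPM against 102 to 157 CPM), and summed macrophage markers (1756 to 2114 CPM against 1474 to 1727 CPM) and T cell markers (215 to 238 CPM against 171 to 181 CPM) were lower. In edgeR 1 of 6 tested neutrophil markers, 0 of 8 macrophage markers (6 at an unadjusted p under 0.05, 4 called by DESeq2) and 1 of 7 T cell markers passed; their part in these results was not tested.

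The 9 calls were uneven when tumors were left out. All 9 stood without Sora-treated tumor 3 and 5 of them without control tumor 3. There were 2 without control tumor 4 and 1 without Sora-treated tumor 2. Without control tumor 1 or Sora-treated tumor 4 there were 0; Spry4 then had an adjusted p of 0.0501 and 0.094, and the log2 fold changes of Spry4 stayed between 0.77 and 1.02. In DESeq2 all 9 passed, in DESeq2 on the 5 deposited count columns 7 (not Hs3st1 and Ier3), with total counts in edgeR 8 (not Hs3st1), and in limma on FPKM 0, with 7 of the 9 testable where low FPKM was filtered.

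**Figure D5:**
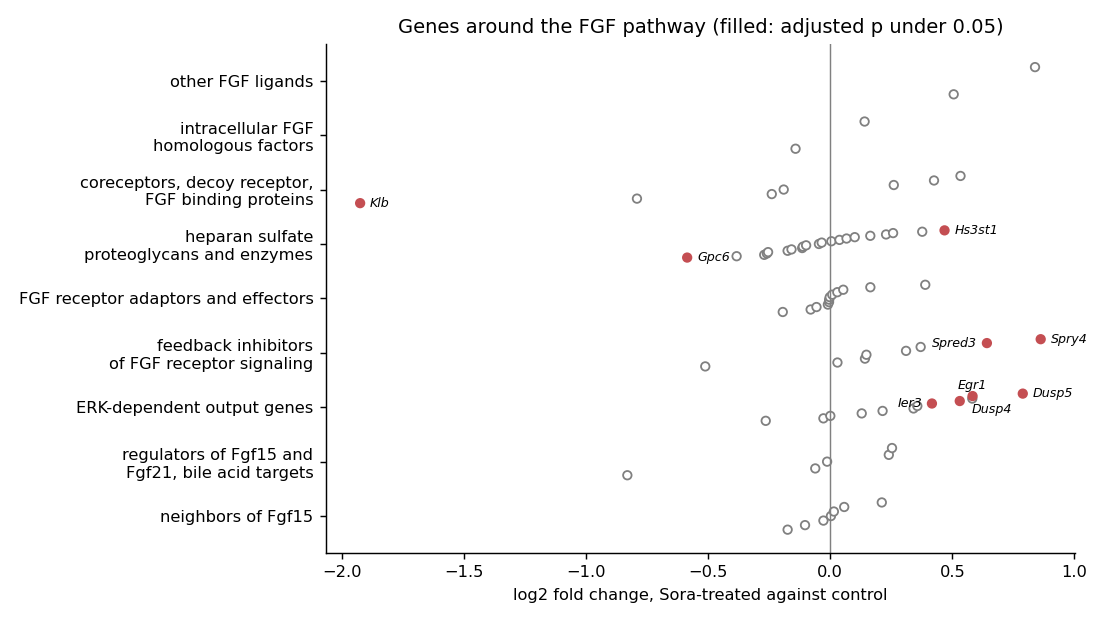
Log2 fold change (Sora-treated against control) of every tested gene in the 9 lists around the FGF members, with 1 circle per gene and filled red circles for an edgeR adjusted p under 0.05. Red circles lie to the right for feedback inhibitors and ERK-dependent outputs, most adaptors lie near 0, and Klb lies farthest to the left.

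Few other FGF ligands had enough reads to test. Of the 12 in this list, 8 were in the tables and 2 could be tested, with 0 past the threshold in edgeR or DESeq2 (1 at an unadjusted p under 0.05, Fgf23): Fgf23, the bone hormone of phosphate balance, at 0.95 FPKM (log2 fold change 0.84, SE 0.35, edgeR adjusted p = 0.24) and Fgf18 at 0.311 FPKM (0.51, SE 0.43, adjusted p = 0.61). Fgf22 averaged 0.126 FPKM and was not tested. Of the intracellular FGF homologous factors, which are not secreted, Fgf11 averaged 1.85 FPKM (log2 fold change 0.14, adjusted p = 0.70) and Fgf13 0.0732 FPKM (-0.14, adjusted p = 0.90), while Fgf12 at 0.00123 FPKM was not tested. Neither passed in DESeq2, and 0 had an unadjusted p under 0.05.

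Exons of some members overlap those of other genes in GENCODE. Fgf2 overlaps Nudt6, Fgfr3 overlaps G630022F23Rik, Fgfr1 overlaps Gm16159, Fgf10 overlaps Gm16263 and Fgf15 overlaps Gm26793 and Gm39119 on the opposite strand, and Fgfr2 shares exonic bases with Ctbp2 and Fgf2 with Gm43439 on the same strand. Use of strand in counting is not stated in the sources used here, so reads from such stretches cannot be told apart.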

How the data were processed

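The authors deposited counts of reads per gene for 5 of the 6 tumors, and FPKM, made by them from such counts, for all 6. The paper names GRCm38 and Bowtie2; the submitters' processing notes list GRCm39, fastp, HISAT2, HTSeq, DESeq2 and R 3.2.0, and which of these made the files is not stated. In the 5 tumors held by both tables each FPKM equals the count over gene length and total count, so the counts of Sora-treated tumor 4 were recovered from its FPKM; for 20951 genes 100% came within 0.001 of a whole number, and 342 genes with 512 reads (0.0015%) had no length and were left at 0. Held out in turn, the 5 known tumors gave back every count of 20969 to 21229 genes.

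The 16513 genes that reached 10 counts in 3 or more tumors were tested with edgeR 4.0.16 (TMM, quasi-likelihood, R 4.3.3), with Benjamini-Hochberg adjustment over all of them and a threshold of 0.05. The standard error is the log2 fold change over the square root of F. CPM divides a count by the total count of the tumor times its TMM factor. Shares and ratios were compared with exact permutation tests in scipy 1.17.1. The script was tested on simulated data. Alternatives were DESeq2 1.42.0, limma 3.58.1 on log2(FPKM + 1) and log2(FPKM + 0.1), other scalings and filters, a replicate block, and each tumor left out; DESeq2 on the 5 deposited count columns and GENCODE (M21) exon lengths were added after the data were seen. The members and lists were chosen with earlier results of these data known. Named are all members, and from each list the genes that passed and the 3 most abundant, every neighbor of Fgf15 that the tables list, and the 3 genes most like the member with the smallest p; Slc10a1 and the other untested bile acid genes, Etv1, Etv4, Etv5, Krt5, Krt14 and the hepatoma markers were named for context after their values were seen. Promoters are from RefSeq (GRCm38.p6).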

Additional observations from a re-analysis of the deposited data

How the results depend on the processing

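The number of FGF members past the threshold went from 0 to 1 in DESeq2, without a filter on low counts and without Sora-treated tumor 3 (range with single tumors left out, 0 to 1). Each time it was Fgf1, with log2 fold changes of -0.78, -0.79 and -1.13 (range with single tumors left out, -1.13 to -0.62). The sign of Fgfr4 turned with control tumor 3 left out (0.065), and likewise for control tumor 4 (0.045), Sora-treated tumor 2 (0.0073) and Sora-treated tumor 4 (0.015), within a range of -0.12 to 0.07, and it was 0.012 in DESeq2 on the 5 deposited count columns. That of Fgf10 turned to -0.11 without Sora-treated tumor 2 (range -0.11 to 0.79). Over all genes, 543 passed in edgeR, 1195 in DESeq2, 1147 without the filter, 198 with limma on log2(FPKM + 1), 38 on log2(FPKM + 0.1), 0 on log2(FPKM + 0.1) with no filter, and 5 to 1145 with single tumors left out; the lowest came with tumor 4 of the Sora-treated group omitted, the highest with its tumor 3 omitted. Pathway genes that passed numbered 9 in edgeR, 18 in DESeq2, 15 without the filter, 0 in each limma setting, and 0 to 19 with single tumors left out. The cause of these shifts was not tested.

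The groups share the label numbers 3 and 4. Over all tested genes, deviations from the group mean in tumors of the same number had correlations of -0.03 and -0.07. Such values cannot tell whether the number stands for a pairing or a batch, and the labels do not say. A fit with replicate number as a block called 125 of all genes, 1 of the pathway genes and 0 of the members. In that fit control tumor 1 and Sora-treated tumor 2 each had a block of their own. Its contrast therefore rested on tumors 3 and 4 of each group.

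Of the 10 places in the order of levels, all 10 were kept in control tumor 1, 7 in control tumor 3, 5 in control tumor 4, 6 in Sora-treated tumor 2, 8 in Sora-treated tumor 3, 4 in Sora-treated tumor 4 and 6 with GENCODE lengths. Groups of 3 tumors and low reads limit Fgf10, Fgf15, Fgf21 and Klb.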
